A study of Oryza sativa Indica Group with 45 samples.

Results

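The flag leaves of the R line and the B line, the inbred parents of the indica rice hybrid MRP5401, were compared with each other. The arrays were chosen by their labels alone, which gave 3 flag leaf arrays of each line, 6 of the 45 arrays in the series. The B line is PMS80, the female parent, and the R line is PR319, the male parent. Flag leaves came from plants of 90 days, and the labels name neither a treatment nor a transgene in any group. The remaining arrays hold the hybrid's flag leaf and the leaves and roots of all 3 genotypes at 14 days (young) and at 40 to 60 days (mature), again with 3 biological replicates per group. Each array is an Affymetrix Rice Genome Array hybridised with labelled RNA. The labels do not say how many plants were pooled for a replicate or at which time of day they were harvested, so p-values rest on the spread between RNA samples. In the main fit that spread was estimated for each probe set within all 15 groups of the 45 arrays, and not from the 6 flag leaf arrays alone. Each line is also 1 genotype, and a difference between them is a difference between PR319 and PMS80 only.

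The flag leaf is the last leaf that a rice plant forms, just below the panicle, and it supplies much of the sugar that fills the grain. As grain filling proceeds it ages, chlorophyll is dismantled, and nitrogen and phosphate are moved out to the panicle. In hybrid rice breeding, the R (restorer) line carries genes that restore male fertility, and the B (maintainer) line is the fertile counterpart of the male-sterile female.

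Levels are given as log2 intensity after GCRMA, a normalization that corrects background by probe sequence. A group mean under 5 was treated as near background. A fold against such a mean was computed with that mean set to 5 and is written as "at least". Differences are R line minus B line in log2 with their standard error (SE), n = 3 arrays per line throughout, and means carry the SD. A probe set was called where its adjusted p in limma was under 0.05. Where a count of lost calls out of 15 alternative analyses is followed by an adjusted p, that p is the highest with 1 array left out. Losses are not given for every gene, and a call printed without one may also have been lost in some alternatives. Of 180 genes run, 58 were called in every alternative, and the fit of the 6 parent arrays alone kept 73. A line that differs in sequence under a probe and a line with less RNA give the same low value, and these cannot be told apart on the array. Fewer cells of a type and less RNA per cell cannot be told apart either.

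The 6 flag leaf arrays of the parents had median log2 intensities of 6.89 to 7.22 and correlated with the others of their group at 0.982 to 0.990. The 3′ minus 5′ signal of 4 control genes, a measure of RNA integrity and labelling, was 2.56 to 2.90 in the R arrays and 2.94 to 3.23 in the B arrays, so the lines did not overlap. Its part in the results was not tested beyond a fit with this index as a covariate, an alternative added after the data were seen, which called 2887 probe sets. Of 10 leaf markers, 9 had a parent mean of 5 or more, and their summed log2 level was 17.85 to 17.92 in R and 17.60 to 17.74 in B. Of the root markers 2 of 14 reached 5 (Lsi1 and HAK1), with sums of 7.87 to 8.41 in R and 8.57 to 8.91 in B. Among panicle and flower markers 1 of 15 reached 5 (AP3), at sums of 7.02 to 7.30 and 6.99 to 7.24, and among anther markers 1 of 10 (MSP1), at 7.49 to 7.68 and 7.69 to 8.20. Dividing-cell markers reached 5 in 9 of 25 cases, with sums of 13.62 to 13.78 in R and 13.89 to 14.33 in B, while the mitotic cyclin CYCB1-1 and the meristem gene OSH1 were under 5. Seed markers reached 5 in 3 of 12 cases (GLB, SBE1 and Gt1), with sums of 11.24 to 11.34 and 10.85 to 11.10. Secondary wall markers reached it in 1 of 10 (IRX14), with sums of 8.55 to 8.59 and 8.39 to 8.55.

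The lines differed at many genes, in both directions to a like extent. Of 24130 probe sets tested, 3065 were called (12.7%), 1579 of them higher in R (6.54%) and 1486 lower in R (6.16%). The median difference over all tested probe sets was 0.0039. In 2825 of the called probe sets the 3 R arrays lay wholly outside the range of the 3 B arrays, as they did in 27.6% of all tested probe sets. Both parent means were under 5 in 242 of the calls (7.9%), and for those no order of levels is read. With means under 5 set to 5, 717 calls were higher in R by 1 or more and 708 lower by as much, and 51 and 43 respectively by 4 or more. At an extreme, 76 probe sets had an R mean of 8 or more and a B mean under 5, and 76 had the reverse. Of these, 7 and 16 showed that pattern in all 4 of the other stages as well. A fit of the 6 parent arrays alone called 1950 probe sets, of which 1646 were among the 3065.

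Most of what was called had no descriptive gene name in the array annotation, which left 2750 of the calls (89.7%) as loci or unannotated probe sets. Among 2086 named genes, 1 probe set each, 253 were called (12.1%), 108 higher in R (5.18%) and 145 lower in R (6.95%). Those shares are the background for the gene groups.

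Among transcription factors and signalling genes, the largest difference in either direction was that of MADS26 (gene 4344493), a MADS-box factor known for its part in stress responses. Its level was 3.67, 3.11 and 4.25 in the R arrays and 10.94, 10.91 and 10.49 in the B arrays. All B arrays stood far above background and all R arrays lay below 5, and the hybrid mean was 10.61. MADS26 was at least 55.0-fold lower in R, with a difference of −7.11 (SE 0.26) and an adjusted p of 4.21e-22. EIL1B, an EIN3-like factor that carries the ethylene signal to its target promoters, was 3.34, 3.31 and 3.21 in the R arrays and 9.44, 9.6 and 10.53 in the B arrays. Here too the R arrays were near background and no array of one line reached the other, which made EIL1B at least 28.9-fold lower in R (difference −6.57, SE 0.39, adjusted p 7.47e-16). The other called ethylene gene was ARD4, an acireductone dioxygenase of the methionine cycle that feeds ethylene synthesis, at 12.39 ± 0.32 in R and 13.39 ± 0.09 in B. Of 11 ethylene genes tested 2 were lower in R and none higher, with a list median of 0.04.

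MADS15, an APETALA1-like factor that marks the turn of a shoot meristem to flowering, went the other way. Its array values were 8.04, 7.6 and 8.45 in the R arrays and 2.62, 3.52 and 5.02 in the B arrays. Every R array was above every B array, although the B arrays themselves ranged from well under 5 to just over it. MADS15 was at least 8.17-fold higher in R, all 3 of its tested probe sets were higher, and its difference was 4.31 (SE 0.77) with an adjusted p of 7.88e-05. Fitted on the 9 flag leaf arrays alone its adjusted p was 0.153. Of the panicle and flower markers, most of them floral MADS genes, all but AP3 lay under 5 in both lines. Of 17 MADS-box genes tested, 3 were higher in R and 1 lower, and of the higher ones MADS2 and MADS47 had both means under 5. Flowering-time genes and phytochromes gave 1 call in each direction among 25 tested. HO1, the haem oxygenase that makes the phytochrome chromophore, stood at 11.92 ± 0.1 in R and 11.32 ± 0.08 in B, and HAP3C, a subunit of the CCAAT-binding complex, at 3.96 ± 0.65 in R and 5.94 ± 0.83 in B. The call of HO1 was lost in 5 of 15 alternatives (adjusted p 0.0771 without R replicate 1). None of 8 clock genes was called by limma, and 1 of them had an unadjusted p under 0.05.

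WRKY71, a WRKY factor known from defence and gibberellin responses, was lower in R, with 6.1, 5.02 and 6.08 in the R arrays and 9.4, 7.19 and 8.88 in the B arrays, with a difference of −2.76 (SE 0.78) and an adjusted p of 0.0131. The lines did not overlap, but the call was lost without B replicate 1 (adjusted p 0.0836), B replicate 3 (0.0556) or R replicate 2 (0.0787), and a second probe set stood at 2.70 and 2.73, near background in both lines. It was the only one of 6 WRKY genes called. RLK10, also named CERK1, the receptor kinase through which rice senses fungal chitin, was higher in R, with 7.23, 7.3 and 7.64 in the R arrays and 5.18, 5.31 and 5.83 in the B arrays, with both of its probe sets called. EL2, a cyclin-dependent kinase inhibitor first found as elicitor-responsive, was at least 5.29-fold lower in R, with 4.69 ± 0.33 in R and 7.4 ± 0.48 in B. Among 41 resistance and pathogenesis-related genes 2 were higher in R (SPL11 and RLK10) and 1 lower. The lower one was Pi21, a proline-rich protein whose loss confers blast resistance, at 3.13, 4.59 and 3.86 in the R arrays and 8.1, 6.51 and 6.01 in the B arrays. The call of Pi21 was lost in 4 of 15 alternatives (adjusted p 0.115 without B replicate 1).

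**Figure D1:**
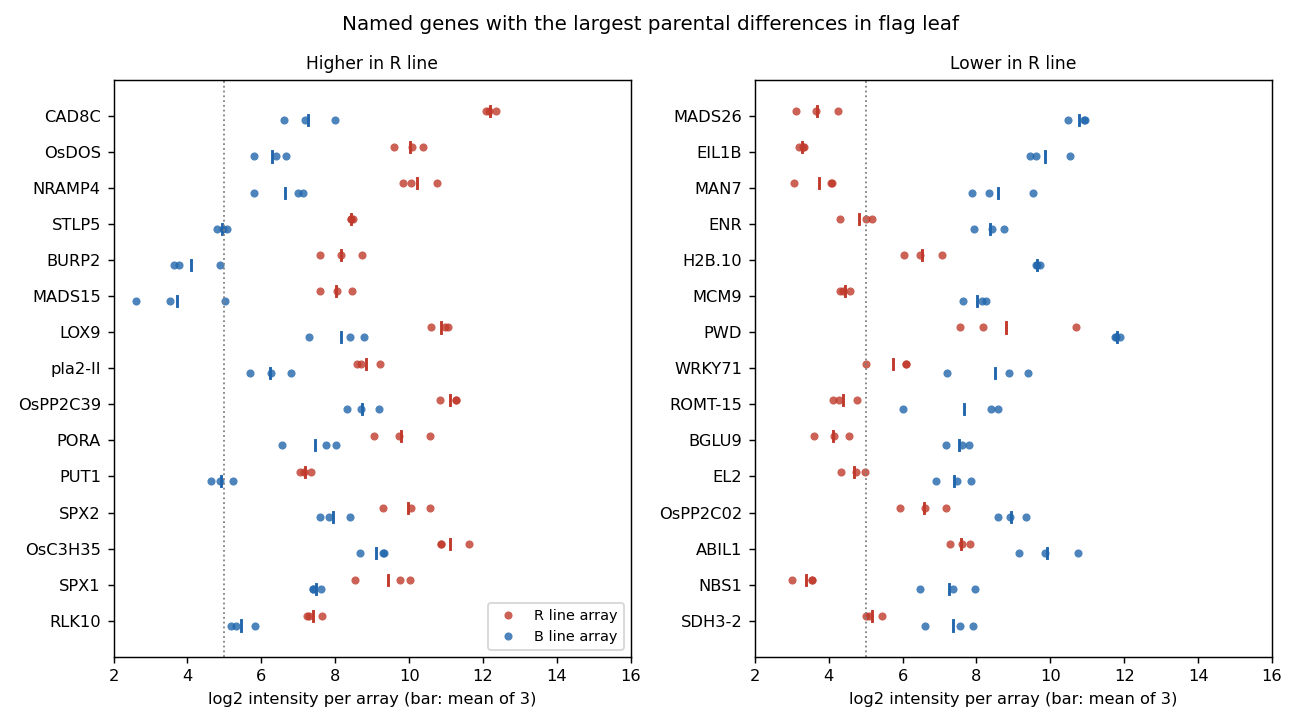
Log2 intensity of the 15 named genes with the largest higher and the 15 with the largest lower level in the R line, sorted by size, with 3 dots per line for the arrays and a bar for their mean; the dotted line is at 5, the near-background level. The R and B dots of each gene are apart, since genes were chosen among those without overlap, and MADS26 and EIL1B have R dots under 5 and B dots above 9.

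Genes of leaf ageing and chlorophyll differed in both directions. OsDOS (gene 4327304), a CCCH zinc-finger protein that delays leaf senescence in rice, was 10.08, 10.37 and 9.58 in the R arrays and 5.81, 6.66 and 6.39 in the B arrays. Each R array was higher than each B array by several units, which came to 13.2-fold (difference 3.73, SE 0.37, adjusted p 6.48e-10). Its other probe set stood at 6.44 in R and 5.84 in B and was not called. OSL2, named as a senescence-associated gene of rice leaf, was also higher in R, with 8.94 ± 0.17 in R and 7.86 ± 0.41 in B (difference 1.08, SE 0.18, adjusted p 1.98e-05). SGR, the stay-green protein that opens chlorophyll breakdown, was lower in R, with 5.97, 3.48 and 5.32 in the R arrays and 8.19, 6.34 and 6.63 in the B arrays. The lowest R array was near background, and the difference of −2.13 (SE 0.56), with an adjusted p of 0.0068, lost its call without B replicate 1 or R replicate 2 and in the fits of flag leaf arrays alone. A second SGR probe set stood at 4.57 in R and 5.58 in B and was not called. In all, 2 of 7 genes of chlorophyll breakdown and senescence were higher in R and 1 was lower, with a list median of 0.24. That median was 0.03 to 0.38 over the alternatives, lowest with the 3′ index as a covariate. The fit of the parent arrays alone called 1 higher and 0 lower.

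Calls among the genes of photosynthesis itself are set against the 12.1% called among all named genes, and a gene without a call is not thereby equal in the lines. Among 17 light-harvesting and photosystem genes 1 was higher in R and 1 lower, none of 11 Calvin cycle and photorespiration genes was called by limma (1 had an unadjusted p under 0.05), and the medians were 0.00 and 0.09. PORA, protochlorophyllide oxidoreductase, which makes chlorophyllide in the light, was the 1 call among 12 chlorophyll synthesis genes. It was 9.04, 10.56 and 9.73 in the R arrays and 6.55, 8.02 and 7.75 in the B arrays, which put all R arrays above all B arrays and gave 5.05-fold (adjusted p 0.00131). The fit of the 6 parent arrays alone gave PORA an adjusted p of 0.0713. CAB2R, a light-harvesting chlorophyll-binding protein, had the highest intensities of the called photosynthesis genes, 15.44, 15.37 and 15.37 in the R arrays and 14.5, 14.2 and 14.71 in the B arrays. Its R arrays all stood above its B arrays by a small margin (difference 0.92, SE 0.26, adjusted p 0.0155), and the call was lost without B replicate 2 (adjusted p 0.0979) or R replicate 1 (0.0514).

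Phosphate genes gave 3 calls among 14. SPX1 and SPX2 are proteins that sense phosphate through inositol polyphosphates and hold back the starvation factor PHR, and their transcripts climb in phosphate-starved rice. SPX1 was 10.01, 8.54 and 9.74 in the R arrays and 7.41, 7.61 and 7.39 in the B arrays. SPX2 was 10.56, 9.28 and 10.06 in the R arrays and 7.58, 7.82 and 8.39 in the B arrays. For both genes all R arrays were above all B arrays, with differences of 1.96 (SE 0.28) and 2.03 (SE 0.33) and adjusted p of 2.09e-06 and 1.97e-05. PHT1-1, a phosphate transporter, was lower in R, with 4.41, 4.85 and 5.43 in the R arrays and 5.65, 7.04 and 8.33 in the B arrays (adjusted p 0.000263), a call that fits of the flag leaf arrays alone did not make (adjusted p 0.109). Its other probe set was near background, at 2.43 in R and 2.38 in B. The list median was 0.17.

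Other ion and metal transporters were mixed. NRAMP4 (gene 4324486), a member of the NRAMP family of metal transporters, was 10.04, 10.75 and 9.83 in the R arrays and 5.8, 7.0 and 7.13 in the B arrays, so that the lines were well apart. It was 11.8-fold higher in R (difference 3.56, SE 0.35, adjusted p 6.25e-10), and 4 of its 5 tested probe sets were called higher. VIT2, a vacuolar iron transporter, was at least 3.3-fold lower in R, with 4.06, 4.36 and 3.9 in the R arrays and 7.25, 5.97 and 6.95 in the B arrays, with all B arrays above all R arrays. MHX1, a vacuolar proton exchanger of magnesium and zinc, was 4.76 ± 0.07 in R and 6.98 ± 0.46 in B, and YSL12, of the family that carries metal-nicotianamine complexes, 6.64 ± 1.14 in R and 8.66 ± 0.87 in B. NAS3 and ZIP5 were called higher in R with 1 R array of each below 5, at 7.05, 3.22 and 7.07 in the R arrays and 4.0, 3.16 and 2.89 in the B arrays for NAS3. The call of NAS3 was lost in 4 of 15 alternatives (adjusted p 0.0685 without R replicate 1) and that of ZIP5 in 6 (0.477 without R replicate 1). Over all 48 metal transport genes 3 were higher in R and 4 lower, at a list median of 0.00. Among 20 potassium genes HAK11, HAK2 and the vacuolar channel TPK2 were higher in R and HAK5 was lower, with 11.56, 11.35 and 11.43 in the R arrays and 12.11, 12.1 and 12.11 in the B arrays. The call of HAK2 was lost in 10 of 15 alternatives (adjusted p 0.223 without B replicate 1) and that of TPK2 in 3 (0.0704 without B replicate 2). PUT1, a polyamine uptake transporter, was 7.04, 7.35 and 7.16 in the R arrays and 4.64, 5.24 and 4.87 in the B arrays, or at least 4.53-fold higher in R.

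Water channels were called in both directions. Of 18 aquaporins 4 were lower and 1 higher in R, with a list median of −0.11. TIP1-2, a channel of the vacuolar membrane, was 11.14, 10.73 and 10.76 in the R arrays and 12.47, 12.11 and 13.21 in the B arrays. All of its B arrays stood above all R arrays (difference −1.72, SE 0.3, adjusted p 5.45e-05). PIP2-1, of the plasma membrane, stood at 11.19 ± 0.32 in R and 12.31 ± 0.49 in B (adjusted p 0.000635). PIP1-3, of the same membrane, stood at 9.9 ± 0.94 in R and 10.98 ± 0.26 in B. The PIP1-3 arrays of the lines overlapped. The call of PIP1-3 was lost in 7 of 15 alternatives (adjusted p 0.272 without R replicate 2) and that of Lsi1 in 3 (0.13 without B replicate 2). Lsi1, the silicon channel best known from roots, was 6.8, 6.5 and 6.94 in the R arrays and 7.58, 8.16 and 7.32 in the B arrays, and it is also the 1 root marker that differed. TIP4-1 was the exception, higher in R, with 11.24 ± 0.15 in R and 10.04 ± 0.13 in B (difference 1.2, SE 0.23). The aquaporin counts were 1 higher and 2 to 4 lower without single arrays, 2 and 2 with the flag leaf arrays alone and 2 and 1 with the parent arrays alone.

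Calls of heat shock genes all ran one way. Of 34 tested, 6 were lower in R and none higher, where 6.95% of all named genes were lower. The list median was −0.36, and −0.12 with means under 5 set to 5. Smaller lists also ran one way, among them the diterpenoid phytoalexins with 4 of 12 lower. HSF24, a heat shock factor of class B, was 7.55, 7.79 and 6.59 in the R arrays and 9.42, 8.38 and 9.52 in the B arrays, with every B array above every R array (difference −1.79, SE 0.31, adjusted p 5.34e-05). HSP26.2, a small heat shock protein, was 4.74, 5.26 and 4.8 in the R arrays and 6.84, 7.0 and 6.89 in the B arrays, and CLPB3, a chaperone that pulls aggregated proteins apart, was 6.62, 7.22 and 7.0 in the R arrays and 8.12, 8.54 and 8.33 in the B arrays. HSP82, a cytosolic HSP90 chaperone and by far the brightest of the group, was 12.23 ± 0.29 in R and 12.78 ± 0.2 in B. The call of HSP82 was lost in 4 of 15 alternatives (adjusted p 0.126 without R replicate 3). HSF2 and HSP22.3 reached 5 in the B line only, at means of 5.14 and 5.3. Without single arrays 5 to 7 heat shock genes were called lower and none higher, and 3 in the fit of the parent arrays alone. The summed level of dividing-cell markers and the 3′ index were also lower in R. The part of the markers in this count was not tested, and the count was 6 with the index as a covariate. In mature leaf, where 9.43% of all tested probe sets were higher in R and 5.74% lower, 1 of the 34 was higher and 2 were lower. The limma test of the flag leaf difference minus the mature leaf difference called 2 of the 34, HSF24 and HSP22.3, both negative. Over all tested probe sets 2.71% were called negative in that test.

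Abscisic acid genes had 5 of 25 lower in R and none higher, at a list median of −0.26, and 0.00 with means under 5 set to 5. ABIL1, a protein phosphatase 2C of the abscisic acid receptor pathway, was the largest of them at 7.83, 7.61 and 7.29 in the R arrays and 10.75, 9.85 and 9.14 in the B arrays. Its B arrays were all higher, at 5.05-fold (difference −2.34, SE 0.24, adjusted p 1.06e-09). SAPK6, one of the SnRK2 kinases that such phosphatases restrain, was 5.53 ± 0.45 in R and 6.64 ± 0.13 in B, and for its relative SAPK10 the means were 4.53 ± 0.54 in R and 5.78 ± 1.19 in B. ABF2, a bZIP factor that binds abscisic acid response elements, was 9.95 ± 0.4 in R and 10.78 ± 0.28 in B, and ABA8OX2, which breaks the hormone down, 6.07 ± 0.2 in R and 7.1 ± 0.88 in B. The call of ABA8OX2 was lost in 11 of 15 alternatives (adjusted p 0.428 without B replicate 2), that of ABF2 in 7 (0.231 without R replicate 3) and that of SAPK10 in 5 (0.283 without B replicate 2). Without single arrays 2 to 5 of the list were called lower, 2 in the fit of flag leaf arrays alone and 3 with the 3′ index as a covariate. The wider family of 51 PP2C phosphatases had 5 calls each way. OsPP2C39 was the largest of the higher ones, at 11.26, 10.83 and 11.26 in the R arrays and 8.69, 8.33 and 9.19 in the B arrays, and OsPP2C02 of the lower ones, at 6.61, 7.18 and 5.92 in the R arrays and 9.35, 8.57 and 8.92 in the B arrays.

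Diterpenoid phytoalexins are antifungal compounds that rice makes from geranylgeranyl diphosphate. Of 12 genes of their synthesis 4 were lower in R and none higher, with a median of −0.55, and 0.00 with means under 5 set to 5. CPS2, the cyclase that starts the phytocassane branch, was 3.43, 3.38 and 3.42 in the R arrays and 5.76, 7.88 and 5.99 in the B arrays. CYP71Z6, a cytochrome P450, was 3.68, 4.02 and 3.68 in the R arrays and 5.69, 7.41 and 5.9 in the B arrays. KOL4, a kaurene oxidase-like P450, was 4.04, 4.5 and 5.36 in the R arrays and 5.81, 8.35 and 6.66 in the B arrays. In each of the 3 genes the highest array was B replicate 2, and none of the 4 calls of the list was kept without it or in the fit of the 9 flag leaf arrays. CYP99A2, of the momilactone branch, was 3.9, 4.23 and 4.2 in the R arrays and 4.47, 7.13 and 7.31 in the B arrays, and in its case B replicate 1 lay close to the R values.

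Cell wall and phenolic genes held some of the largest differences. CAD8C (gene 9269515), of the cinnamyl alcohol dehydrogenase family that makes lignin alcohols, was 12.34, 12.17 and 12.09 in the R arrays and 6.6, 7.17 and 7.98 in the B arrays. The R arrays were tightly grouped and all above the B arrays, at 31.0-fold (difference 4.95, SE 0.31, adjusted p 2.97e-15). Its other tested probe set was near background in both lines, at 2.92 and 2.95. MAN7, a mannan-hydrolysing endo-beta-mannosidase, was lower in R by at least 3.58 on the log2 scale, with 4.09, 3.07 and 4.07 in the R arrays and 8.33, 7.89 and 9.52 in the B arrays (adjusted p 9.82e-12). ROMT-15, an O-methyltransferase, was 4.28, 4.76 and 4.13 in the R arrays and 6.02, 8.39 and 8.58 in the B arrays, at least 6.33-fold lower in R with an adjusted p of 3.49e-07, and 0.0631 in the fit of the parent arrays alone. The B replicates of ROMT-15 spread widely, but none fell to the R values. Of 29 phenylpropanoid and lignin genes 1 was higher in R (CAD8C) and 4 lower (CAD2, ROMT-15, 4CL3 and 4CLL7). The counts were 1 to 2 higher and 2 to 5 lower without single arrays, 1 and 1 with the flag leaf arrays alone and 1 and 0 with the parent arrays alone. The call of CAD2 was lost in 5 of 15 alternatives (adjusted p 0.142 without B replicate 3) and that of 4CL3 in 4 (0.118 without B replicate 3). CAD2, of the same dehydrogenase family, was 6.9, 6.11 and 6.67 in the R arrays and 6.37, 9.63 and 9.89 in the B arrays, with 1 B array inside the range of the R arrays. BGLU9, a beta-glucosidase, was at least 5.78-fold lower, with 4.1 ± 0.48 in R and 7.53 ± 0.32 in B, and BURP2, a BURP-domain protein, at least 8.93-fold higher, with 8.16, 8.72 and 7.6 in the R arrays and 3.76, 3.64 and 4.89 in the B arrays. STLP5, a sialyltransferase-like protein, had closely grouped arrays in each line, at 8.47, 8.43 and 8.42 in the R arrays and 4.8, 5.07 and 4.96 in the B arrays, which was at least 10.9-fold higher in R.

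Lipid and jasmonate genes were led by LOX9, a lipoxygenase, at 11.05, 10.97 and 10.6 in the R arrays and 7.28, 8.4 and 8.77 in the B arrays. All R arrays exceeded all B arrays and all 3 tested probe sets were higher (difference 2.73, SE 0.63, adjusted p 0.0019). The phospholipase A2 gene pla2-II was 6.01-fold higher in R, with 8.84 ± 0.34 in R and 6.25 ± 0.56 in B, and ENR was at least 10.3-fold lower, with 4.83 ± 0.45 in R and 8.36 ± 0.41 in B. The 1 other jasmonate call among 34 genes was JAZ10, a repressor of jasmonate responses, at 2.61, 2.39 and 2.5 in the R arrays and 10.81, 2.7 and 5.74 in the B arrays. One B array carries that call, which was lost without B replicate 1 (adjusted p 0.257) and is not read as a line difference.

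Carbon storage and transport genes were called in both directions. PWD, which phosphorylates starch before its breakdown, was 10.7, 8.17 and 7.55 in the R arrays and 11.78, 11.74 and 11.88 in the B arrays. The B arrays were almost equal while R replicate 1 lay well above the other R arrays, and the difference of −2.99 (SE 0.43), with an adjusted p of 1.92e-06, missed the threshold in the fit of the parent arrays alone (adjusted p 0.11). AGP1, of ADP-glucose pyrophosphorylase, was lower in R, with 7.54 ± 0.12 in R and 8.4 ± 0.49 in B, and SBE1, a starch branching enzyme, higher, with 10.34 ± 0.05 in R and 9.39 ± 0.24 in B. Of 42 sucrose, invertase and sugar transport genes 2 were higher and 6 lower, with both means of SUS6 and SWEET2A under 5. These counts turned with the arrays fitted, to 1 to 3 higher and 4 to 8 lower without single arrays, 5 and 2 with the flag leaf arrays alone and 2 and 0 with the parent arrays alone. The higher calls were SUS5 and SUS6. SUS5 was called in all 15 alternatives, with a difference of 1.76 to 2.42 without single arrays. CINV1, a cytosolic invertase, was 6.64, 6.01 and 6.48 in the R arrays and 8.48, 7.44 and 7.49 in the B arrays, with the B arrays all higher (adjusted p 1.72e-06). TPP7, a trehalose 6-phosphate phosphatase, was 4.07, 3.74 and 5.61 in the R arrays and 5.01, 7.96 and 7.24 in the B arrays, and B replicate 1 lay within the R values. SWEET4, a sugar carrier, stood at 5.68 ± 0.34 in R and 7.21 ± 1.17 in B. SWEET1B, of the same family, stood at 7.11 ± 0.15 in R and 8.62 ± 1.38 in B. The call of AGP1 was lost in 3 of 15 alternatives (adjusted p 0.119 without B replicate 2), that of TPP7 in 3 (0.0664 without B replicate 2) and that of SWEET1B in 3 (0.184 without B replicate 2).

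Histone and chromatin genes were lower in R where called. Of 28 histone and chromatin genes 5 were lower and none higher, at a median of −0.08. The counts were 0 higher and 3 to 5 lower without single arrays, 0 and 3 with the flag leaf arrays alone and 0 and 2 with the parent arrays alone. H2B.10, a core histone, was 6.48, 6.05 and 7.08 in the R arrays and 9.6, 9.63 and 9.71 in the B arrays, and the B arrays were almost equal. H2B.10 was 8.62-fold lower in R (adjusted p 8.64e-13). H2B.6 was lower by less (difference −0.7, SE 0.16). CenH3, the histone of centromeres, had means of 5.1 ± 0.67 in R and 6.16 ± 0.47 in B. The call of CenH3 was lost in 6 of 15 alternatives (adjusted p 0.107 without B replicate 2). JMJ706, a histone demethylase, had means of 4.01 ± 0.28 in R and 5.91 ± 0.9 in B. MCM9, of the MCM helicase family, was 4.31, 4.59 and 4.39 in the R arrays and 7.63, 8.27 and 8.15 in the B arrays, and both of its probe sets were lower. NBS1, which senses double-strand breaks, was at least 4.82-fold lower, with 3.37 ± 0.32 in R and 7.27 ± 0.75 in B. The replicative helicase genes MCM2 to MCM7 were under 5 in both lines, and 4 of 63 cell cycle and replication genes were higher in R against 2 lower. The higher ones were RPA2A, CYCD3-1, CDKG-2 and CDKF-1, and the lower ones MCM9 and RPA1C. Without single arrays the difference was 2.21 to 3.08 for RPA2A and 1.55 to 2.12 for CYCD3-1, and both were called in all 15 alternatives. The call of CDKF-1 was lost in 11 of 15 (adjusted p 0.187 without B replicate 1). The summed level of the dividing-cell markers, which include H2B.6, H2B.10 and MCM9, was lower in R, and its part in these differences was not tested. SDH3-2, a subunit of succinate dehydrogenase, was 4.52-fold lower, with 5.18 ± 0.21 in R and 7.36 ± 0.67 in B.

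Antioxidant, glutaredoxin and glutathione transferase genes had 3 higher (GST-I with both means under 5) and 9 lower among 63, with a list median of −0.04. APX5, an ascorbate peroxidase, was 5.18, 5.96 and 6.43 in the R arrays and 7.58, 8.01 and 7.51 in the B arrays, with all R arrays below all B arrays. GRXS2, a glutaredoxin, stood at 3.55 ± 0.19 in R and 6.06 ± 1.27 in B, and another, GRXC1, at 10.06 ± 0.22 in R and 11.47 ± 0.71 in B. The call of GRXC1 was lost in 3 of 15 alternatives (adjusted p 0.0747 without B replicate 2). OsTrx08, a thioredoxin, was higher, with 11.56 ± 0.2 in R and 10.58 ± 0.31 in B. Without single arrays 4 to 9 of the list were called lower, 2 in the fit of flag leaf arrays alone and 6 with the 3′ index as a covariate. Calcium kinases and sensors had 2 higher and 7 lower among 68, but 1 to 8 lower without single arrays and 2 with the index as a covariate. Brassinosteroid genes had 3 higher and 1 lower among 14, among them DWARF with both means under 5 and BZR2, a brassinosteroid-responsive factor, at 8.09, 8.44 and 8.15 in the R arrays and 6.7, 5.89 and 7.4 in the B arrays. By limma's adjusted p, 0 genes were called in the dehydrin and LEA (25), NAC (8), germin-like (7) and 14-3-3 (6) lists, where 3, 2, 1 and 2 genes had an unadjusted p under 0.05.

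Growth hormone genes gave few calls. GA20OX2, the gibberellin oxidase known as the semi-dwarf gene of the green revolution, was 11.09, 11.36 and 11.13 in the R arrays and 9.59, 9.34 and 10.62 in the B arrays. Its R arrays all exceeded its B arrays (difference 1.34, SE 0.38, adjusted p 0.0137), but the call was lost in 5 of the 15 alternatives, and it was the 1 call among 11 gibberellin genes. Of 26 cytokinin genes 2 were higher in R and none lower. CKX11, a cytokinin oxidase that degrades the hormone, was 8.83, 8.2 and 8.88 in the R arrays and 7.42, 5.94 and 7.44 in the B arrays, and RR22, a response regulator, 6.18 ± 0.13 in R and 5.1 ± 0.35 in B. Auxin genes had 1 higher (IAA3) and 2 lower (ARF2, and IAA6 with both means under 5) among 56. The call of CKX11 was lost in 3 of 15 alternatives (adjusted p 0.0507 without B replicate 2) and that of IAA3 in 5 (0.148 without R replicate 3). SPL15, a squamosa-promoter factor, was higher in R, with 10.57, 10.31 and 10.68 in the R arrays and 9.1, 9.48 and 9.04 in the B arrays, the lines being clear of each other (difference 1.31, SE 0.18, adjusted p 6.83e-07). It was 1 of 2 higher calls, with GRF11, among 31 SPL, TCP, GRF and leaf-shape genes. The call of GRF11 was lost in 6 of 15 alternatives (adjusted p 0.182 without B replicate 2).

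RNA-handling genes and other families were mixed. Among 21 argonaute and small RNA genes AGO1B, SHL2 and DRB1 were higher in R and AGO2 and DRB2 lower. SHL2, the RNA-dependent RNA polymerase of trans-acting small RNA synthesis, was 6.12, 5.95 and 6.31 in the R arrays and 3.98, 4.59 and 3.96 in the B arrays, and AGO2 was 7.5, 7.6 and 7.58 in the R arrays and 7.87, 8.64 and 8.58 in the B arrays. Of 43 C3H zinc-finger genes 3 were higher and 4 lower, and OsC3H35 was the brightest of the higher ones at 10.86, 11.63 and 10.86 in the R arrays and 8.67, 9.3 and 9.33 in the B arrays. Among 24 ribosomal protein genes RPS15 and rps20 were lower in R and none was higher, at a list median of −0.19, and neither fit of the flag leaf arrays alone made these calls. The call of RPS15 was lost in 4 of 15 alternatives (adjusted p 0.139 without B replicate 2) and that of rps20 in 4 (0.143 without B replicate 2). Nitrogen genes had 1 call each way among 17, with the ammonium transporter AMT1-1 lower in R, with 10.14, 9.95 and 10.38 in the R arrays and 10.95, 10.75 and 11.5 in the B arrays. Endoplasmic reticulum folding genes had 2 calls each way among 19, and the unfolded-protein factors BZIP50 and BZIP60 were the lower ones. BZIP50 stood at 4.93 ± 0.08 in R and 6.09 ± 0.44 in B and BZIP60 at 6.42 ± 0.32 in R and 7.42 ± 0.29 in B. The call of BZIP60 was lost in 9 of 15 alternatives (adjusted p 0.17 without R replicate 2), that of AMT1-1 in 2 (0.067 without B replicate 3) and that of AGO1B in 2 (0.0636 without R replicate 2). Cellulose synthase and glucan genes had 3 each way among 46. Metallothioneins MT2A and MT2B were higher in R among 7 tested, at 8.05, 8.5 and 9.18 in the R arrays and 6.25, 8.28 and 6.44 in the B arrays for MT2B, a call that fits of flag leaf arrays alone did not make. The call of MT2A was lost in 8 of 15 alternatives (adjusted p 0.153 without R replicate 3) and that of MT2B in 5 (0.0642 without B replicate 1). MAP kinases had 1 higher and 3 lower among 22 (WNK2 with both means under 5), and beta-glucosidases 1 higher and 3 lower among 23.

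**Figure D2:**
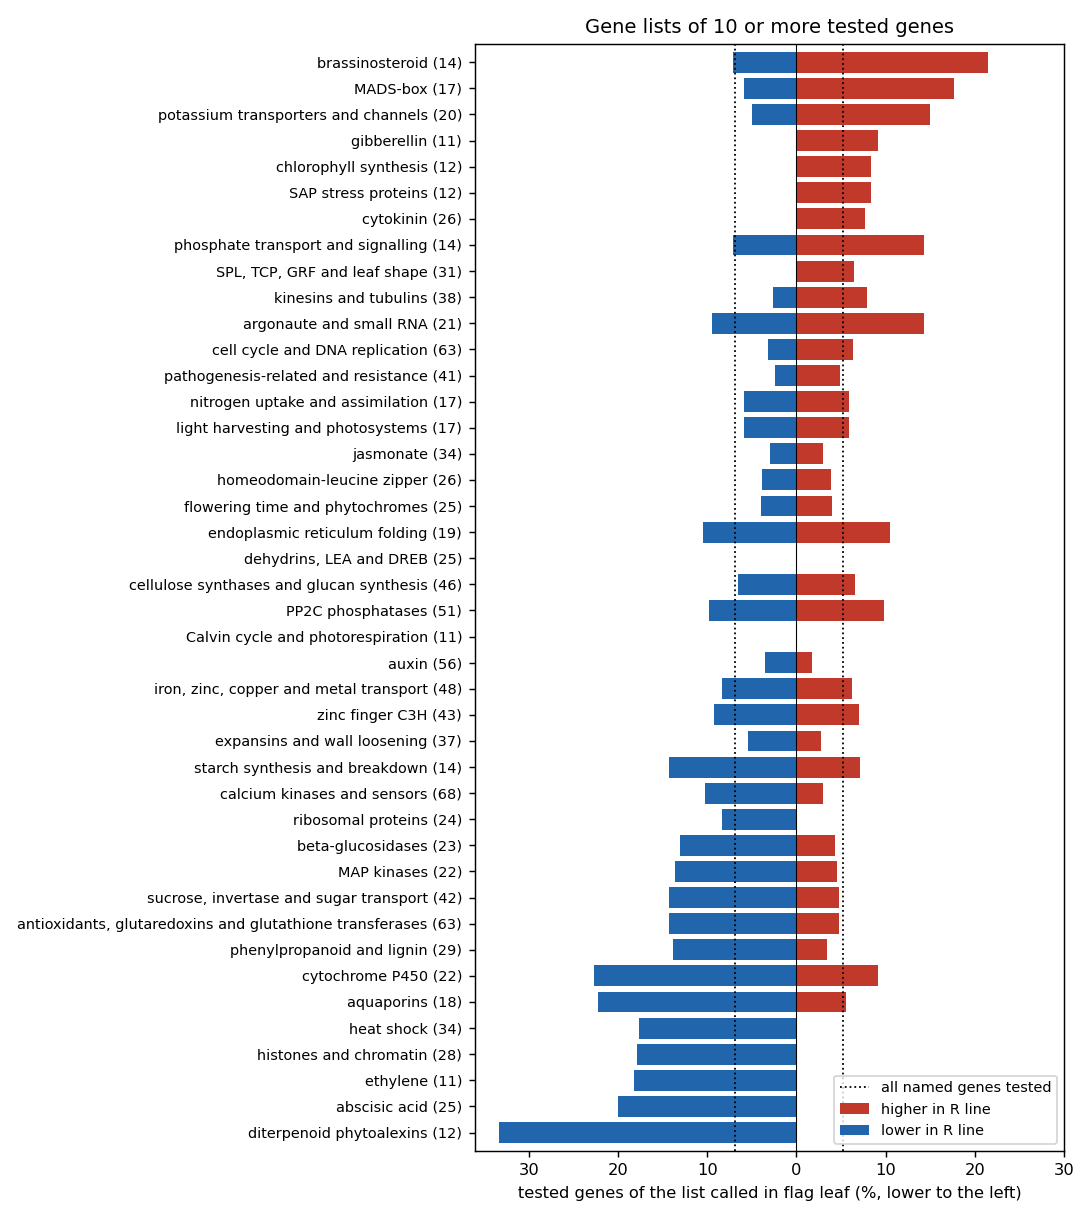
Share of the tested genes of each list of 10 or more that was called higher (right, red) or lower (left, blue) in the R line, in percent, with the number tested in brackets and the dotted lines at 5.18% and 6.95%, the shares over all named genes. Heat shock, abscisic acid, diterpenoid phytoalexin, histone and chromatin, ethylene and ribosomal protein genes have blue bars and no red one. The MADS-box bar includes 2 calls with both means under 5.

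**Figure D3:**
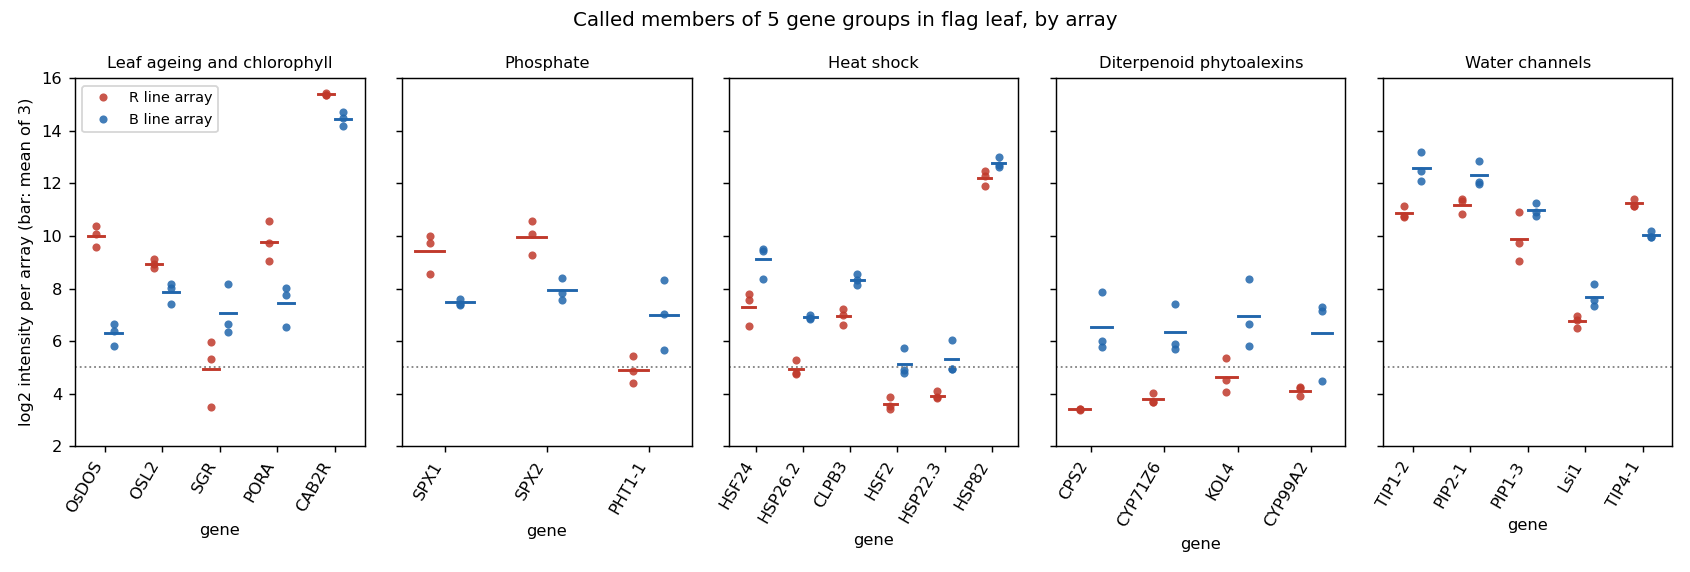
Log2 intensity per array (dots, 3 per line) and mean (bars) of the called genes of leaf ageing and chlorophyll, phosphate, heat shock, diterpenoid phytoalexins and water channels, with a dotted line at 5. The heat shock dots of the B line are above those of the R line in each gene, and in the phytoalexin panel the R dots of CPS2 and CYP71Z6 are under 5.

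The same parents were compared in the other stages to see whether the flag leaf differences recur. These comparisons use other arrays of the same lines. The flag leaf calls were called the same way in mature leaf in 1398 cases, which is 45.6% of the flag leaf calls and 38.2% of the 3662 calls of mature leaf (background 15.2% of tested probe sets). In 36 cases (1.17%) the direction was opposite. In young leaf, where 46.3% of tested probe sets were called, 1344 had the same direction (43.8% of flag leaf calls, out of its own 11180) and 521 the opposite one. In mature root, with 58.9% called, 1243 had the same direction (40.6%, out of 14222) and 553 the opposite one. In young root, with 28.6% called, the counts were 1081 (35.3%, out of 6892) and 274. The background shares count calls in either direction, and the shares of flag leaf calls count the same direction only, so they are not like for like. In each of these 3 stages many probe sets were called, and same-direction calls outnumbered opposite ones. Of the flag leaf calls 442 (14.4%) were called the same way in all 5 stages, 188 of them higher and 254 lower in R, and 714 (23.3%) in no other stage. CAD8C and EIL1B were among the genes called the same way throughout, at differences in mature leaf of 6.8 and −5.97.

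**Figure D4:**
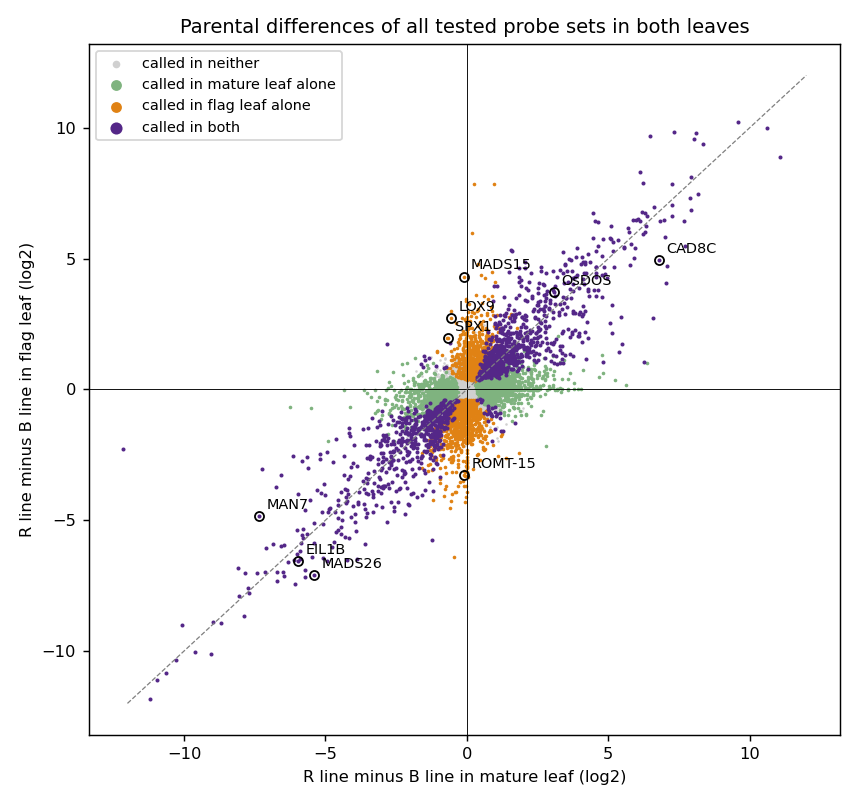
Difference between the lines (log2) of every tested probe set in mature leaf (horizontal) and in flag leaf (vertical), coloured by whether it was called in flag leaf, in mature leaf, in both or in neither, with the dashed line at equality. Circles mark 9 genes; CAD8C and EIL1B lie far from 0 on both axes, and MADS15, LOX9, SPX1 and ROMT-15 farther from 0 on the vertical than on the horizontal axis.

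Whether the line difference itself changed from mature to flag leaf was tested as a difference of differences. It was called for 1065 probe sets (4.41%), 412 positive (1.71%) and 653 negative (2.71%). Of these, 388 were called in flag leaf and not in mature leaf, and 425 the other way. Values here were fitted on levels as deposited, so where a mean lay under 5 their exact size and rank are not read. MADS15 had a value of 4.42 (SE 1.09, adjusted p 0.0132), and 3.03 with means under 5 set to 5, where its mature leaf means were 2.57 in R and 2.68 in B. The value of SPX1 was 2.62 (SE 0.4, adjusted p 4.88e-05). SPX1 was well above background in all 4 groups, with R means of 9.64 in mature leaf and 9.43 in flag leaf and B means of 10.3 and 7.47. LOX9 and ROMT-15, at 3.28 and −3.18, differed in flag leaf and not beyond the threshold in mature leaf, where ROMT-15 stood at 9.51 and 9.6. Neither passed the fit of the 12 flag and mature leaf arrays of the parents alone, at adjusted p of 0.0843 and 0.0758. This call of LOX9 was lost in 6 of 14 alternatives. Aquaporins gave 4 negative values among 18 (PIP2-1, TIP1-2, Lsi1 and PIP2-4), although PIP2-4 had both flag leaf means under 5.

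Against the mean line difference of the other 4 stages, 4909 probe sets were called (20.3%), 2476 positive (10.3%) and 2433 negative (10.1%), and 1699 of them were also called in flag leaf. OsDOS was among the largest positive ones at 3.91 (SE 0.41, adjusted p 1.04e-08). Its line difference was 3.07 in mature leaf but −1.37 in young leaf and −1.62 in mature root. MADS26 was called negative, at −4.79 (SE 0.29) and at −3.55 with means under 5 set to 5, since its R arrays in flag leaf were under 5. It had line differences of −5.4 in mature leaf, −2.74 in young leaf and −0.5 in mature root. PCL1, a clock gene, was among the negative ones: its flag leaf difference was −0.31 (SE 0.29) and not called, and its young leaf difference was 8.23.

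**Figure D5:**
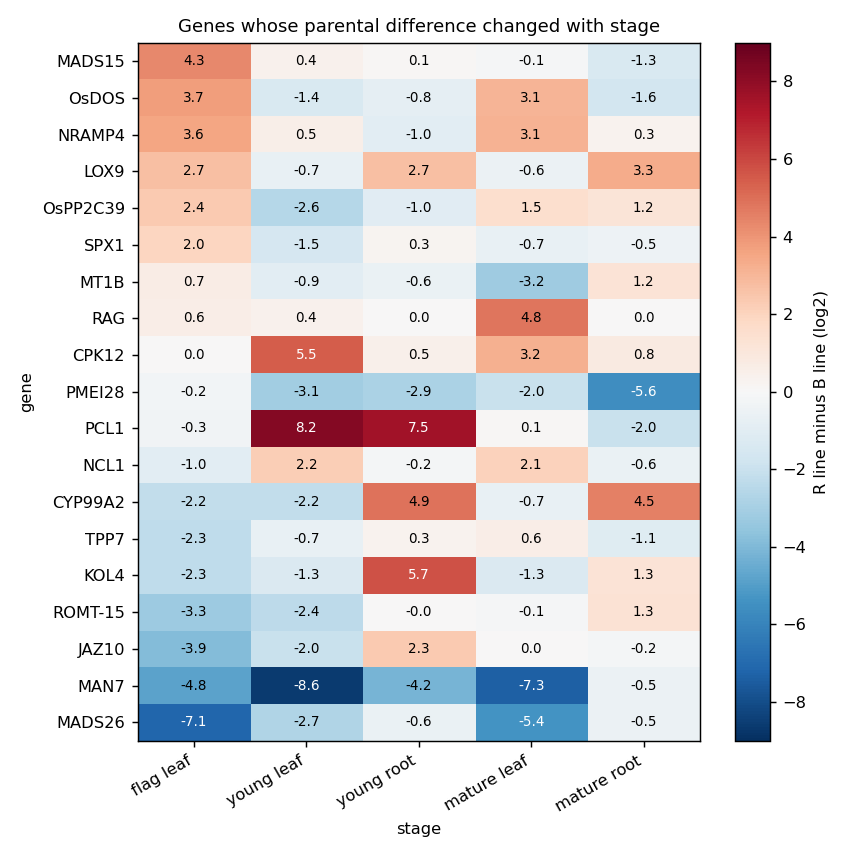
Difference between the lines (R minus B, log2) in flag leaf and the 4 other stages for the genes named from the tests of stage, with the value in each cell, red for higher and blue for lower in the R line. MADS15 is deep red in flag leaf alone, MAN7 is blue in each stage, and PCL1 is red in the young leaf and young root.

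The hybrid's flag leaf mean lay between its parents for 2332 of the 3065 called probe sets (76.1%). Over all tested probe sets, most of which were not called, it did so for 7628 (31.6%). Called probe sets were chosen for a gap between the parents, so these shares are not like for like and no mode of inheritance is read.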

How the data were processed

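RNA of flag leaves, leaves and roots of the R line, the B line and their hybrid was measured on 45 Affymetrix Rice Genome Arrays, of which the 6 flag leaf arrays of the parents are described here. The deposited values are intensity on a linear scale, made by the authors with GCRMA, whose version is not given in the sources used here, per the submitters' processing notes. Groups and replicate numbers were taken from the labels. The lowest deposited value was 2.41, so a floor of 1 had no effect, and values were converted to log2 without further normalization. No array pair was identical (0 of 45 arrays), and 0 columns of other samples were left out.

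After 187 control probe sets were left out, 24130 of 57381 reached a group mean of 5 (log2) somewhere and entered the tests. Group means of 15 groups were fitted with limma 3.58.1 in R 4.3.3 (30 residual degrees of freedom), with Benjamini-Hochberg adjusted p-values per comparison and a threshold of 0.05. The comparisons were R minus B in flag leaf, that difference minus the one in mature leaf, and that difference minus the mean of the other 4 stages. Fold changes against a mean under 5 were computed as bounds. The number of arrays limits the precision. On simulated data the same fit was checked for the recovery of known differences.

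Probe sets were named through the platform annotation, with symbols updated by gene ID to the RefSeq table of assembly ASM3414082v1. It pairs 22436 probe sets with 1 gene, 95 with several and 34850 with none. Per gene the probe set with the highest mean over all arrays was used, without sets marked as cross-hybridising. The text names the 15 largest bounded differences in each direction among called genes whose arrays did not overlap, and the 5 largest in each direction of the tests between stages. It also names up to 4 called members of many gene lists, but the called members of some lists are not named. MADS2, MADS47, SUS5, HSF2, HSP22.3, GRXC1, DWARF and other further list members were added to complete a count. The members and the 54 gene lists and 7 marker lists were chosen with earlier results of these data known. Alternatives were quantile normalization, other level filters, another offset, array weights, a replicate block, fits of fewer arrays, each parent array left out in turn and, added later, the 3′ index as a covariate.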

Additional observations from a re-analysis of the deposited data

Results flagged for a closer look

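The difference between the lines differed between flag leaf and mature leaf for 1065 probe sets, by limma's test of the difference of differences. Values are of levels as deposited, and no rank is read where a mean lay under 5. The named genes with the largest positive values were MADS15 at 4.42, the metallothionein MT1B at 3.85, LOX9 at 3.28, SPX1 at 2.62 and MAN7 at 2.51. MT1B was not called in flag leaf (5.26 in R and 4.58 in B) and was lower in R in mature leaf (4.68 and 7.85). MAN7 was lower in R in both leaves, and its R mean was near background in flag leaf, so its line differences are not ordered by size. The most negative were RAG at −4.17, ROMT-15 at −3.18, the calcium-dependent kinase CPK12 at −3.17, NCL1 at −3.04 and TPP7 at −2.89. RAG, also named MADS3, a gene of stamen identity, was under 5 in both lines in flag leaf and at 7.74 in R and 2.94 in B in mature leaf. CPK12 and NCL1 also had both flag leaf means under 5, so the change lies in the mature leaf values. In the fit of the 12 leaf arrays of the parents LOX9, MAN7, MT1B, NCL1, ROMT-15 and TPP7 were no longer called. The calls of LOX9 and TPP7 were each lost in 6 of 14 alternatives. Their highest adjusted p in limma with 1 array left out were 0.0733 (without B replicate 1) and 0.11 (without B replicate 2).

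Against the mean of the other 4 stages, the line difference differed for 4909 probe sets. The largest positive values were those of MADS15 at 4.56, OsDOS at 3.91, PMEI28 at 3.15, NRAMP4 at 2.83 and OsPP2C39 at 2.61. PMEI28, a pectin methylesterase inhibitor, was under 5 in both lines in flag leaf and lower in R elsewhere, with 6.16 in R and 11.76 in B in mature root. The most negative were MADS26 at −4.79, JAZ10 at −3.95, CYP99A2 at −3.82, PCL1 at −3.79 and KOL4 at −3.39. CYP99A2 and KOL4 were higher in R in young root, at 11.16 against 6.28 and 10.63 against 4.92. JAZ10 lost its call without B replicate 1, whose array alone was above 10 in flag leaf (adjusted p 0.214).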

How the results depend on the processing

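Of the 180 genes run, which are the called members of the lists and the largest differences, none changed direction in any alternative in which it was tested, and 25 of the 30 genes with the largest differences were called in all 15 alternatives run. The exceptions were MADS15, PORA, PWD, ROMT-15 and WRKY71. Of the 180, 58 were called in every alternative. The fit of the 9 flag leaf arrays alone kept 103 and that of the 6 parent arrays alone 73, and the covariate lost 26. The parent arrays alone gave 1950 calls (56.9% higher in R). That fit has fewer degrees of freedom and a spread from these arrays only, and why its calls differ was not tested. Leaving out single arrays gave 2435 to 2934 calls in flag leaf, 786 to 1146 for flag leaf against mature leaf and 3639 to 4358 against the other 4 stages. With array weights flag leaf against mature leaf gave 2018 calls, and 675 with the 12 leaf arrays of the parents alone. The share of calls higher in R was 45.9% to 56.9% over the alternatives. For flag leaf against mature leaf, 38.7% of calls were positive, and 48.4% after quantile normalization. Levels under 5 carry no order, and the 3′ index differed between the lines. The replicate numbers did not pair the arrays, with residual correlations of −0.003, −0.04 and −0.009 against a minimum of 0.1, and the replicate block gave 2985, 963 and 4758 calls for the 3 comparisons.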

Other observations

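The widest differences between the lines in flag leaf were at loci with no descriptive name, 2 in each direction described here. LOC4328727 had means of 2.38 in R, 14.22 in B and 13.27 in the hybrid, with B arrays at 14.08, 14.20 and 14.37. LOC4326061 behaved alike, with means of 2.34 in R, 13.44 in B and 12.65 in the hybrid, and its line difference was −10.95 in mature leaf and −10.86 in young root. In the other direction LOC4340976 had means of 12.68 in R and 2.48 in B, and LOC4350706 of 12.58 and 2.77, with hybrid means of 11.75 and 11.74. In all 4 the R and B arrays were far apart and each line's own 3 arrays were close together. A probe set that one line's sequence does not match and a gene that this line does not express cannot be told apart for them.

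Neighbouring genes were set beside each other by their order in the RefSeq annotation. Of 907 pairs of adjacent tested genes whose first gene was called, the next gene was called the same way in 96 (10.6%) and the opposite way in 57, where 5.98% of the 14276 genes were called higher in R and 6.08% lower. There were 7 runs of 3 adjacent genes called the same way. Where a gene had 2 or more tested probe sets and at least 1 call, which held for 276 genes, all its probe sets were called the same way in 47 and calls ran in opposite directions in 9.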
